A study of Drosophila melanogaster with 12 samples.

Results

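The piRNA clusters that lie on the heterochromatic scaffolds of the dm3 fly genome were followed in ChIP-seq of histone H3 and of H3 acetylated at lysine 23 (H3K23ac). These scaffolds, whose names end in Het, hold pericentromeric sequence assigned to a chromosome arm but kept apart from it. Clusters were taken by scaffold name and by a mean of at least 10 reads over the 8 H3 and H3K23ac libraries. Of 142 clusters in the tables, 48 were on Het scaffolds and 46 of these passed. They were 2 on 2LHet, 10 on 2RHet, 15 on 3LHet, 18 on 3RHet and 1, cluster 92, on XHet. The other 47 clusters that passed served for comparison, which gave 93 tested clusters. Just inside the limit was cluster 138 on 3RHet, with a mean of 11.8 reads, and just outside were cluster 133 on 2RHet, with 8.63, and cluster 140 on 3LHet, with 4.5. All 46 clusters with 0 reads in every library were on the unplaced sequence U.

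Ovaries of Drosophila melanogaster females, 2 to 3 days old, were compared after RNAi at 29 °C for 2 to 3 days against enok (enok_KD) or against GFP (GFP_KD). The enok_KD females carried tj-GAL4/+ and GAL4::VP16-nos.UTR at CG6325[MVD1] over the hairpin P{TRiP.HMS02634}attP2, and the GFP_KD females carried both drivers over P{VALIUM20-EGFP.shRNA.1}attP2. The tj driver acts in somatic follicle cells and the nos driver in the germline, so that both compartments of the ovary were targeted in both groups. Each group had 2 H3K23ac and 2 H3 libraries from pooled ovaries, and 4 input libraries were not analysed here. In whole ovaries, a smaller share of one kind of cell and less of the mark per cell cannot be told apart, and these files hold no measure of enok itself. The labels do not say whether libraries of one group came from separate cultures of flies. P-values thus measure the spread between these libraries, pooled over all groups in one fit.

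piRNA clusters are loci whose transcripts are cut into piRNAs, the small RNAs that guide silencing of transposons in the gonad. In the germline many of them are transcribed from within heterochromatin with the help of the chromatin protein Rhino, which binds a methylated form of H3. Enok is a MYST-family acetyltransferase and the main enzyme for H3K23ac in the fly, a mark usually found at active genes.

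Cluster reads numbered 22774 to 34324 in the H3K23ac libraries and 49811 to 72946 in the H3 libraries, and the smallest was enok_KD H3K23ac replicate 1. Over the Het clusters, the chi-square between replicates, per degree of freedom, was 1.82 for H3K23ac and 3.28 for H3 in enok_KD, as compared with 1.18 and 1.37 in GFP_KD, so the enok_KD libraries agreed less well with each other. In 9 of the 46 Het clusters, of which 5 were on 3RHet, at least 1 H3K23ac library had fewer than 10 reads, and 24 had a mean of at least 100 reads. A change in these data is relative to the typical cluster, because libraries were scaled to each other over the tested clusters with TMM factors.

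Cluster 92 (XHet, bases 170080 to 204036) dominated the reads. It held 38.1% and 43.1% of cluster reads in the enok_KD H3K23ac libraries, as compared with 25.5% and 25.1% in the GFP_KD H3K23ac libraries. In the H3 libraries it held 19.2% and 18.8% in enok_KD and 21.6% and 21.2% in GFP_KD. All Het clusters together took 48.5% and 53.8% of the H3K23ac reads in enok_KD, as compared with 38.5% and 38.6% in GFP_KD. Without cluster 92 the remaining 45 Het clusters spanned 2478 kb. They took 10.4% and 10.7% of all cluster reads of H3K23ac in enok_KD and 13.0% and 13.5% in GFP_KD. That total still held the reads of cluster 92. With cluster 92 also taken out of the total, their share of H3K23ac reads was 16.85% and 18.79% in enok_KD. In GFP_KD it was 17.48% and 17.98%, between the values of enok_KD, so this share showed no drop. Their share of H3 reads, taken in the same way, was lower in enok_KD (28.0% and 26.4%) than in GFP_KD (29.7% and 30.1%).

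Read density was low on most Het clusters and unequal between them. In GFP_KD the H3 libraries gave a median of 5.27 reads per kb over the 46 Het clusters, with a range of 0.629 to 430.7. Over the other 47 clusters the median was 14.2 and the range 3.26 to 367.9. These are counts divided by length and not scaled for depth, and only uniquely mapped reads entered them. Summed over the Het clusters without cluster 92, H3 density in GFP_KD was 5.97 and 6.98 reads per kb in the 2 libraries, as compared with 19.3 and 22.1 over the other clusters. H3 density summed by scaffold in GFP_KD averaged 8.87 reads per kb on 2LHet, 5.41 on 2RHet, 6.34 on 3LHet and 7.11 on 3RHet. Of the 3RHet density a large part came from cluster 53, without which 3RHet had 5.07 reads per kb, so the 4 autosomal scaffolds lay close together beside the gap to cluster 92.

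The densest cluster of each scaffold in GFP_KD H3 was cluster 35 on 2LHet (12.7 reads per kb), cluster 21 on 2RHet (11.2), cluster 100 on 3LHet (22.3), cluster 53 on 3RHet (38.8) and cluster 92 on XHet (430.7). H3K23ac density summed by scaffold in GFP_KD averaged 3.38 reads per kb on 2LHet, 1.55 on 2RHet, 1.89 on 3LHet and 1.12 on 3RHet. Without cluster 53, 3RHet had 0.908 H3K23ac reads per kb and the 4 scaffolds stood in one order, 2LHet, 3LHet, 2RHet and 3RHet, for both H3K23ac and H3.

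**Figure D1:**
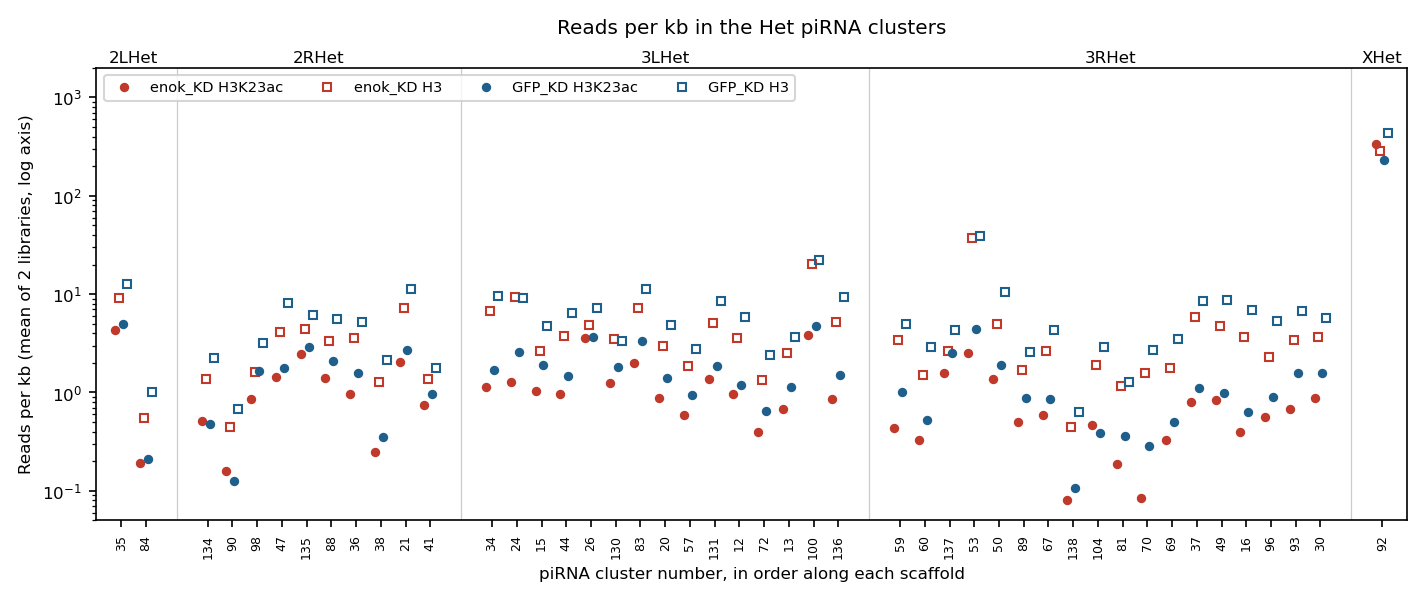
Reads per kb (log axis, mean of 2 libraries) of the 46 Het clusters in order along each scaffold, for enok_KD H3K23ac, enok_KD H3, GFP_KD H3K23ac and GFP_KD H3. Cluster 92 stands far above the rest, and cluster 53, with 38.8 reads per kb in GFP_KD H3, is the next densest in H3.

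The first question was how much H3K23ac the Het clusters carried per H3 in control ovaries. More of them lay below the typical cluster than above it. In the edgeR quasi-likelihood fit, with p-values adjusted over 93 clusters by Benjamini-Hochberg, 9 of 46 Het clusters had more H3K23ac per H3 than the typical cluster in GFP_KD and 21 had less, as compared with 27 and 14 of the other 47. Over all tested clusters 38.7% passed as higher and 37.6% as lower. The median log2 ratio was -0.47 over the Het clusters, -0.51 without cluster 92, 0.58 over the other clusters and -0.16 over all.

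The zero of this scale was set by TMM and moved with the scaling, whereas the distance between clusters did not. With total counts 1 Het cluster was higher and 33 were lower, with factors taken from transposon reads 0 were higher and 39 lower, and with cluster 92 left out of the totals, a setting chosen after seeing the data, 3 were higher and 31 lower. The median of all clusters was then -0.69, -0.95 and -0.62, and 75, 80 and 76 of all 93 tested clusters were called in either direction.

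The distance between scaffolds was taken from summed reads within each library pair, H3K23ac and H3 of the same number, and does not depend on scaling. The Het clusters without cluster 92 lay below the other clusters, with log2 differences of -0.94 and -0.64 in enok_KD and of -0.99 and -0.98 in GFP_KD. With cluster 92 the differences were 0.39 and 0.79 in enok_KD, as compared with -0.38 and -0.38 in GFP_KD, so that 1 cluster turned the direction in enok_KD. The groups of 2 cannot give an exact two-sided p below 0.333, so these distances are described without a test.

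Among the scaffolds, 3RHet was the lowest in H3K23ac per H3. Its summed log2 ratio was -1.30 and -1.22 in enok_KD and -0.95 and -1.01 in GFP_KD. It lay below 3LHet in every library pair, with a distance of 3LHet over 3RHet of 1.10 and 1.23 in enok_KD and 0.89 and 0.97 in GFP_KD. Cluster 53 took a large share of its H3 reads. Without that cluster, an alternative added after seeing the data, 3RHet still differed from 3LHet by -0.58 and -0.76 in enok_KD and by -0.67 and -0.81 in GFP_KD.

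The scaffold order in GFP_KD was XHet, 2LHet, 3LHet, 2RHet and 3RHet. Cluster 92 on XHet had log2 ratios of 1.69 and 1.97 in enok_KD and 0.78 and 0.76 in GFP_KD. Scaffold 2LHet had 0.41 and 0.63 in enok_KD and 0.32 and 0.27 in GFP_KD, with nearly all of its reads from cluster 35. Scaffolds 2RHet and 3LHet changed places between the knockdowns, with 2RHet over 3LHet by 0.18 and 0.13 in enok_KD and by -0.04 and -0.09 in GFP_KD.

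**Figure D2:**
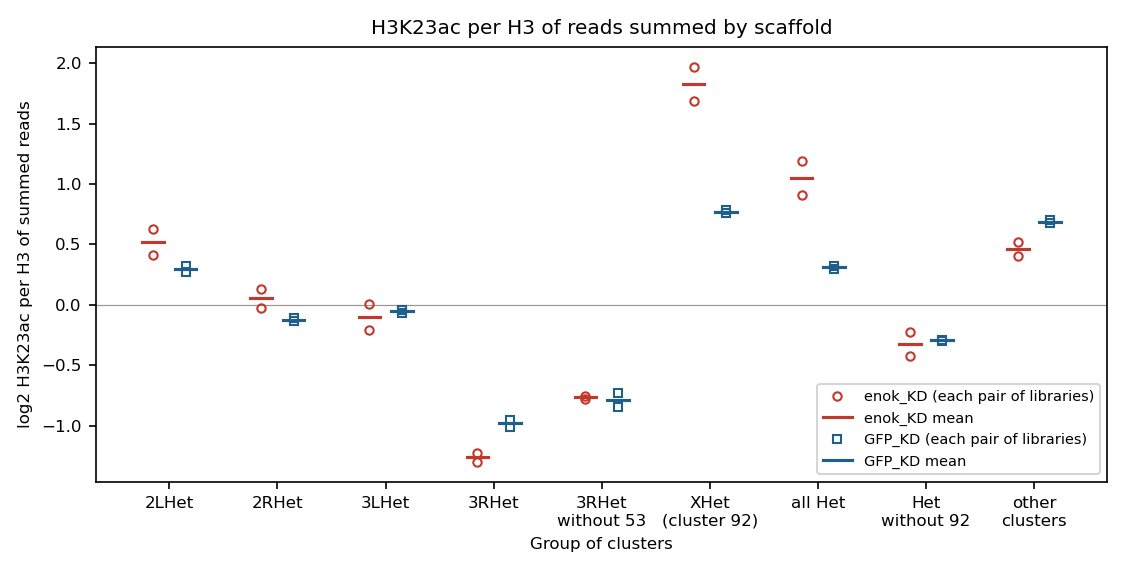
Log2 H3K23ac per H3 of reads summed over each group of clusters, with a symbol for each library pair and a line at the mean (n = 2), enok_KD left of GFP_KD. 3RHet is lowest with or without cluster 53, and the gap between the knockdowns over all Het clusters is absent once cluster 92 is left out.

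Within 3RHet, 12 of 18 clusters were lower than the typical cluster in GFP_KD and 1 was higher, with a median log2 ratio of -0.82. The lowest of all Het clusters was cluster 16 (bases 2033725 to 2108757), with 33 and 27 H3K23ac reads against 281 and 271 H3 reads in enok_KD, and 61 and 35 against 446 and 594 in GFP_KD. Its log2 ratio was -1.21 and -1.93 in enok_KD and -1.43 and -2.12 in GFP_KD, where the fitted value was -1.75 ± 0.17 (SE, edgeR adjusted p = 5.0e-22). The ranges of the knockdowns overlapped, so cluster 16 was low in both.

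Cluster 16 was not alone in its stretch of 3RHet. Going along the scaffold, the fitted GFP_KD ratio was -1.20 in cluster 104, -1.55 in cluster 70, -1.12 in cluster 69, -1.29 in cluster 37 and -1.45 in cluster 49, which lead up to cluster 16. This run is broken by cluster 81, at -0.13, which begins 100 bases after the end of cluster 104. Of the run, cluster 70 rested on 1 and 4 H3K23ac reads in enok_KD and on 7 and 10 in GFP_KD. Cluster 104 had 7 and 12 in enok_KD and 9 and 7 in GFP_KD, and cluster 81 had 6 and 10 and then 18 and 13. Where the run begins and where it breaks thus rests on few reads.

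The exception on 3RHet was the cluster at bases 185301 to 208455, the highest of all Het clusters by the fitted GFP_KD ratio, 0.92 ± 0.20 (SE, edgeR adjusted p = 1.1e-05). Its log2 ratio was 0.44 and 1.12 in enok_KD and 1.09 and 0.80 in GFP_KD. With total counts it was no longer called (0.38) nor with factors from transposon reads (0.13).

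On 3LHet, 3 clusters were higher and 6 of 15 were lower in GFP_KD, with a median of -0.13. Cluster 130 (bases 660546 to 687580) was the highest, with a log2 ratio of 0.17 and 0.02 in enok_KD and of 0.46 and 1.18 in GFP_KD, where the fitted value was 0.81 ± 0.21 (edgeR adjusted p = 2.2e-04). Cluster 136 (bases 2493616 to 2502857), the shortest Het cluster at 9.24 kb, was the lowest, with -0.34 and -1.55 in enok_KD and -0.48 and -1.47 in GFP_KD, and a fitted value of -0.95 ± 0.31 (edgeR adjusted p = 0.0038). Both calls were lost without GFP_KD H3K23ac replicate 2 (0.56 and -0.66), that of cluster 136 also without GFP_KD H3 replicate 2 (-0.80), and that of cluster 130 also under 3 other scalings.

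On 2RHet, 3 of 10 clusters were higher and 3 were lower in GFP_KD. Cluster 41 (bases 2982706 to 3050412) was the highest, with 0.50 and 0.77 in enok_KD and 0.64 and 0.94 in GFP_KD, and a fitted value of 0.78 ± 0.18 (edgeR adjusted p = 5.0e-05), a call lost with total counts (0.25) and with cluster 92 left out of the totals (0.33). Cluster 38 (bases 2177704 to 2248466) was the lowest, with -0.63 and -0.76 in enok_KD and -1.22 and -0.55 in GFP_KD, and a fitted value of -0.90 ± 0.23 (edgeR adjusted p = 1.8e-04). Without GFP_KD H3K23ac replicate 1 cluster 38 was at -0.57 and no longer called. The densest cluster, 21 (bases 2803104 to 2898450), was at -0.36 ± 0.13 in GFP_KD (edgeR adjusted p = 0.0054), a call lost without the same library (-0.27, edgeR adjusted p = 0.15).

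On 2LHet, cluster 35 (bases 156077 to 219342) had 0.40 and 0.66 in enok_KD and 0.36 and 0.29 in GFP_KD, with a fitted value of 0.32 ± 0.12 (edgeR adjusted p = 0.013). That call was lost without either GFP_KD H3K23ac library or without GFP_KD H3 replicate 1. It was also lost at a mean of at least 100 counts, and with factors from transposon reads cluster 35 was at -0.47 and called as lower. Cluster 84 (bases 336057 to 367088), at -0.59 ± 0.54, had 5 to 8 reads in each H3K23ac library and did not pass.

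Neighbouring clusters were compared by the absolute difference of their GFP_KD log2 ratios, as a description. Its median was 0.51 over 17 neighbouring pairs on 3RHet, as compared with 0.65 over all 153 pairs of that scaffold. On 3LHet it was 0.46 over 14 neighbouring pairs and 0.50 over all 105. On 2RHet it was 0.86 over 9 neighbouring pairs and 0.72 over all 45, where for instance cluster 90 (-0.76) is followed by cluster 98 (0.74) and then by cluster 47 (-0.52). Neighbours on 3RHet were closer than pairs at large, and neighbours on 2RHet were not.

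The order of the Het clusters in H3K23ac per H3 was much alike in both knockdowns. The mean log2 ratio of the library pairs in enok_KD was set against the fitted GFP_KD ratio. Over the 46 clusters the Pearson coefficient was 0.78 and the Spearman coefficient 0.76, and over 45 without cluster 92 these were 0.77 and 0.74. The points share their libraries, and clusters are not replicates.

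**Figure D3:**
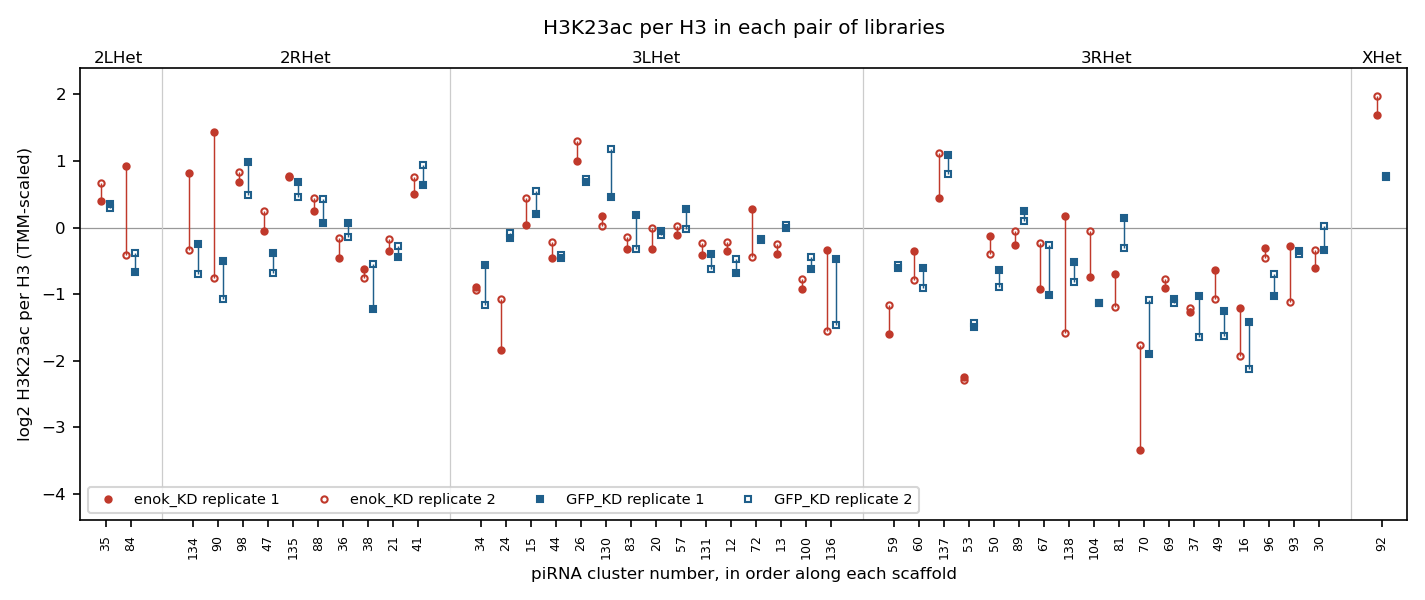
Log2 H3K23ac per H3 of each Het cluster in each library pair (TMM-scaled, offset of 0.5 reads), enok_KD left of GFP_KD, in order along the scaffolds. The pairs of 3RHet lie mostly below 0 apart from the high cluster in the third place along it, and the wide spans of clusters 84, 90, 138 and 70 belong to clusters with fewer than 10 reads in an H3K23ac library.

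The second question was whether knocking down enok changed H3K23ac per H3 at these clusters. In the edgeR fit (Benjamini-Hochberg adjustment) 2 Het clusters rose, 92 and 47, and 2 fell, 24 and 53, while 42 did not pass. Of all tested clusters 4.3% passed as higher and 8.6% as lower. Among the other 47 clusters 2 rose and 6 fell. At an unadjusted p under 0.05 there were 4 higher and 4 lower Het clusters, as compared with 2 higher and 10 lower of the others. By sign 25 Het clusters were up and 21 down, and of the others 19 were up and 28 down. The median log2 change was 0.05 over the Het clusters, 0.03 without cluster 92, -0.05 over the other clusters and -0.03 over all.

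The count and its split depended on the scaling. With total counts 1 Het cluster was higher and 6 were lower, with factors taken from transposon reads 1 was higher and 2 lower, and with cluster 92 left out of the totals 4 were higher and 2 lower. The median change of all clusters was then -0.23, -0.01 and 0.14, and 18, 10 and 12 of all 93 tested clusters were called in either direction. Without enok_KD H3K23ac replicate 2 the median change was 0.14 over the Het clusters and 0.04 over all.

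Both enok_KD log2 ratios lay outside the span of both GFP_KD ratios in 20 of the 46 Het clusters (43.5%), above in 11 and below in 9. The same held for 51.6% of all tested clusters, so separated ratios were no more frequent on Het scaffolds. By scaffold the clusters apart were 1 of 2 on 2LHet, 3 of 10 on 2RHet, 6 of 15 on 3LHet, 9 of 18 on 3RHet and cluster 92.

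Cluster 92 showed the largest rise of H3K23ac per H3 among the 46 clusters. It had 8677 and 14165 H3K23ac reads and 9816 and 9361 H3 reads in enok_KD, as compared with 8754 and 6810 H3K23ac reads and 13766 and 15482 H3 reads in GFP_KD. Reads were also scaled per 10000 of the product of cluster reads and TMM factor, which is not a share of reads. On this scale H3K23ac was at 5292 and 6268 in enok_KD and 2804 and 2722 in GFP_KD. Scaled H3 was at 1644 and 1597 in enok_KD and 1631 and 1605 in GFP_KD. The ratio rose by 1.06 ± 0.16 on the log2 scale (SE, edgeR adjusted p = 1.6e-09) and H3K23ac alone by 1.07 ± 0.11 (edgeR adjusted p = 1.2e-17), while H3 was at 0.0022 ± 0.11 (edgeR adjusted p = 0.99). The rise of the ratio was called under every alternative that kept the cluster, between 0.86 and 1.24.

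Cluster 47 (2RHet, bases 1415904 to 1491914) was higher in the ratio while its H3 was lower. It had 92 and 129 H3K23ac reads and 347 and 281 H3 reads in enok_KD, and 162 and 107 H3K23ac reads and 574 and 663 H3 reads in GFP_KD. Scaled H3 was at 58.1 and 47.9 in enok_KD, below the 68.0 and 68.7 in GFP_KD. The ratio rose by 0.62 ± 0.20 (edgeR adjusted p = 0.026), with H3 at -0.37 ± 0.12 (adjusted p = 0.022) and H3K23ac at 0.25 ± 0.17 (adjusted p = 0.36). The rise of the ratio was lost without any of 6 of the 8 libraries, all but GFP_KD H3K23ac replicate 1 and enok_KD H3 replicate 1, and was lost with DESeq2 (adjusted p = 0.058), with total counts (0.41) and with the transposon factors.

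Cluster 24 (3LHet, bases 163582 to 206577) fell the most. It had 27 and 82 H3K23ac reads and 357 and 450 H3 reads in enok_KD, as compared with 120 and 101 H3K23ac reads and 363 and 414 H3 reads in GFP_KD. Its log2 ratio was -1.84 and -1.07 in enok_KD and -0.16 and -0.08 in GFP_KD. The 2 enok_KD H3K23ac libraries differed widely, though both log2 ratios lay below both of GFP_KD.

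The ratio of cluster 24 fell by 1.17 ± 0.23 on the log2 scale (SE, edgeR adjusted p = 1.2e-05). H3 rose by 0.67 ± 0.12 (adjusted p = 1.9e-06), and H3K23ac, at -0.51 ± 0.19, lay near the threshold (adjusted p = 0.060). H3K23ac passed as lower with limma voom (-0.61, adjusted p = 0.035), with total counts (-0.89, edgeR adjusted p = 2.9e-04), with cluster 92 left out of the totals (edgeR adjusted p = 0.030) and with a replicate block (-0.57, edgeR adjusted p = 0.039). Its change was -0.12 without enok_KD H3K23ac replicate 1 and -1.25 without replicate 2. Without enok_KD H3K23ac replicate 1 the change of the ratio was -0.78 and no longer called (edgeR adjusted p = 0.083), and without replicate 2 it was -1.92.

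Cluster 53 (3RHet, bases 533743 to 579880) was already low in control ovaries, at -1.46 ± 0.13 in GFP_KD. It had 113 and 118 H3K23ac reads and 1966 and 1505 H3 reads in enok_KD, as compared with 225 and 179 H3K23ac reads and 1715 and 1861 H3 reads in GFP_KD. Its log2 ratio was -2.25 and -2.29 in enok_KD and -1.49 and -1.43 in GFP_KD, without overlap.

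The ratio of cluster 53 fell by 0.83 ± 0.20 (SE, edgeR adjusted p = 7.3e-04), with a rise of H3 by 0.57 ± 0.11 (adjusted p = 1.3e-05) and H3K23ac at -0.27 ± 0.16 (adjusted p = 0.32). Without enok_KD H3K23ac replicate 2 the change of the ratio was -0.63 (edgeR adjusted p = 0.063). With total counts H3K23ac alone also passed as lower at cluster 53 (-0.65, edgeR adjusted p = 0.0014).

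**Figure D4:**
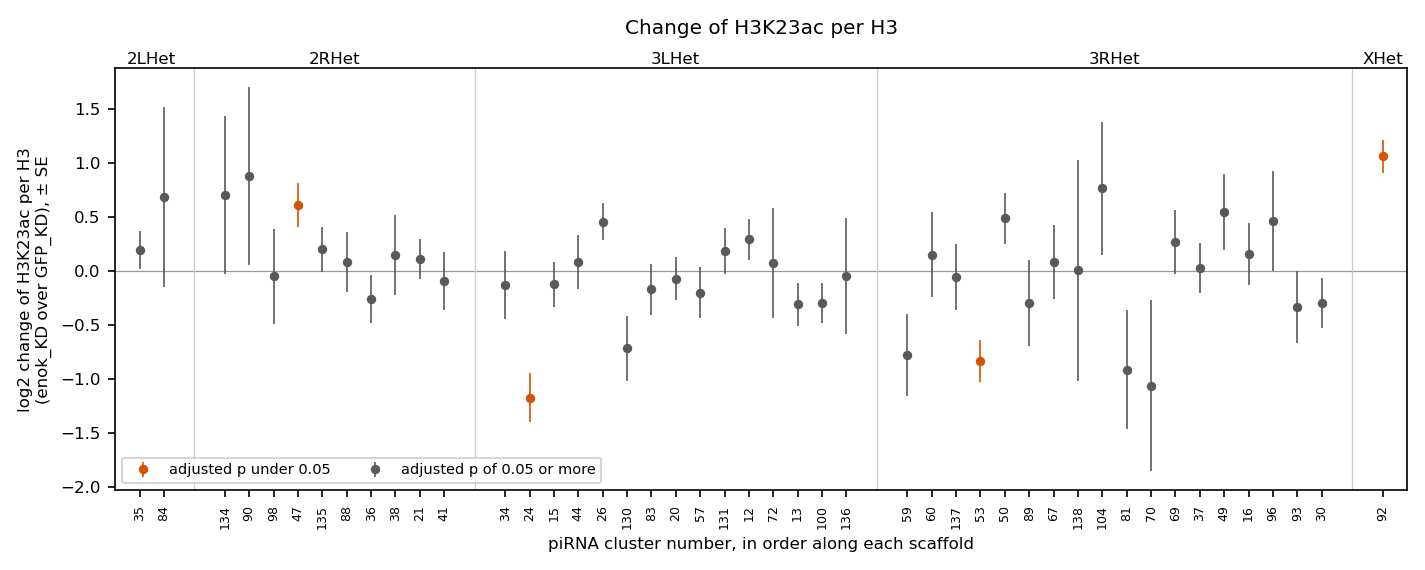
Log2 change of H3K23ac per H3 (enok_KD over GFP_KD, ± SE of the edgeR fit) of the 46 Het clusters in order along each scaffold. Clusters 92 (1.06) and 47 (0.62) passed above 0, and clusters 24 (-1.17) and 53 (-0.83) below it.

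Summed by scaffold, the change of the log2 ratio was 1.06 ± 0.20 on XHet, 0.23 ± 0.16 on 2LHet, 0.18 ± 0.12 on 2RHet, -0.05 ± 0.15 on 3LHet and -0.28 ± 0.07 on 3RHet (SD combined from both knockdowns, n = 2 each). Without cluster 53 the change on 3RHet was 0.02 ± 0.08. Over all Het clusters it was 0.74 ± 0.20, without cluster 92 it was -0.03 ± 0.14, and over the other clusters it was -0.23 ± 0.08. Clusters 53 and 92 were themselves called for a changed ratio, so a move of the sums of 3RHet and of all Het clusters towards 0 without them was to be foreseen. The sums left were within their SD of 0, a zero that moves with the scaling.

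H3 alone was higher in enok_KD at 4 Het clusters (24, 53, 100 and 130) and lower at 3 (47, 50 and 96) by edgeR's test with Benjamini-Hochberg adjustment. Of all tested clusters 11.8% were higher and 3.23% lower, and the 3 lower ones were these Het clusters. Among the other 47 clusters, 7 were higher and 0 were lower. At an unadjusted p under 0.05 there were 5 higher and 6 lower Het clusters, and 9 higher and 2 lower among the others. DESeq2 called 3 Het clusters, all higher, and 5 of all 93 tested clusters. Without GFP_KD H3 replicate 2 the median change of H3 was -0.01 over the Het clusters and 0.04 over all. With total counts 4 were higher and 10 lower, with cluster 92 left out of the totals 4 and 13, and with it left out of the fit 4 and 5. The median change of all clusters was then -0.15, -0.20 and -0.01. Called in either direction were 24 of 93, 33 of 93 and 14 of 92 tested clusters.

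Cluster 100 (3LHet, bases 2180368 to 2230834), which begins 100 bases after the end of cluster 13, had scaled H3 of 166.4 and 182.0 in enok_KD and 125.8 and 122.8 in GFP_KD, a rise of 0.49 ± 0.11 (SE, edgeR adjusted p = 3.1e-04). H3K23ac was at 0.19 ± 0.15 and the ratio at -0.30 ± 0.18, and neither passed (edgeR adjusted p = 0.47 and 0.36). Cluster 130 on the same scaffold had scaled H3 of 13.2 and 18.9 in enok_KD and 10.8 and 9.23 in GFP_KD, a rise of 0.69 ± 0.18 (edgeR adjusted p = 0.0016). Its H3K23ac was at -0.03 ± 0.25 and its ratio at -0.72 ± 0.30 (edgeR adjusted p = 0.95 and 0.11). With total counts the ratio passed as lower at both clusters (-0.51 and -0.92), and at cluster 130 also without enok_KD H3 replicate 1 (-0.95). Both rises were lost without GFP_KD H3 replicate 2 (edgeR adjusted p = 0.051 and 0.13), and that of cluster 130 also without enok_KD H3 replicate 2 (0.41) and with DESeq2.

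Clusters 50 and 96, both on 3RHet, were the others with less H3. Cluster 50 (bases 617644 to 658939) had scaled H3 of 35.0 and 35.1 in enok_KD and 44.4 and 50.9 in GFP_KD, a log2 change of -0.44 ± 0.12 (SE, edgeR adjusted p = 0.0049). Cluster 96 (bases 2178310 to 2199481) had 7.87 and 8.70 in enok_KD and 13.3 and 11.9 in GFP_KD, a log2 change of -0.60 ± 0.20 (edgeR adjusted p = 0.026). In both clusters the H3 values of the knockdowns did not overlap.

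H3K23ac alone was at 0.05 ± 0.20 in cluster 50 and -0.13 ± 0.40 in cluster 96, and the ratio at 0.49 ± 0.24 and 0.46 ± 0.46, none of which passed (edgeR adjusted p = 0.94, 0.89, 0.20 and 0.63), although with cluster 92 left out of the totals the ratio of cluster 50 did (0.66, edgeR adjusted p = 0.044). The lower H3 of cluster 50 was lost without GFP_KD H3 replicate 2 and that of cluster 96 without any of 5 libraries, and both were lost with DESeq2. For cluster 47 the lower H3 was lost without any of 4 libraries, with DESeq2 and with factors from transposon reads, and was -0.23 without enok_KD H3 replicate 2.

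H3K23ac alone was higher in enok_KD at 2 Het clusters, 92 and 26, and lower at 0 by edgeR, as compared with 8.6% higher and 3.23% lower over all tested clusters. At an unadjusted p under 0.05 there were 3 higher and 4 lower Het clusters, as compared with 10 higher and 8 lower of the other 47. DESeq2 called 0 Het clusters as lower and limma voom 1, while 10 and 12 of all 93 were called in either direction. With total counts 1 Het cluster was higher and 11 were lower, the median of all clusters was -0.41, and 31 of all 93 were called. With cluster 92 left out of the totals there were 2 higher and 1 lower, and 14 of all 93 were called. With single libraries left out, the change of H3K23ac at cluster 92 was between 0.94 and 1.18.

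Cluster 26 (3LHet, bases 495578 to 629871) spans 134.3 kb. It had scaled H3K23ac of 218.9 and 270.8 in enok_KD and 172.0 and 180.3 in GFP_KD, a rise of 0.48 ± 0.12 (SE, edgeR adjusted p = 0.0018), while H3 was at 0.02 ± 0.12 (adjusted p = 0.90). Its log2 ratio was 1.00 and 1.31 in enok_KD and 0.69 and 0.73 in GFP_KD, without overlap, and the change of 0.46 ± 0.17 lay at the threshold (edgeR adjusted p = 0.052). It passed in 8 of 10 other settings, with adjusted p-values between 0.0024 and 0.049, and failed with total counts (0.25) and with factors from transposon reads (adjusted p = 0.063). With single libraries left out it passed only without enok_KD H3K23ac replicate 1 (edgeR adjusted p = 0.011), and was at 0.29 without replicate 2. The rise of H3K23ac was lost without enok_KD H3K23ac replicate 2 (0.32), without GFP_KD H3K23ac replicate 1 and with total counts (0.10).

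**Figure D5:**
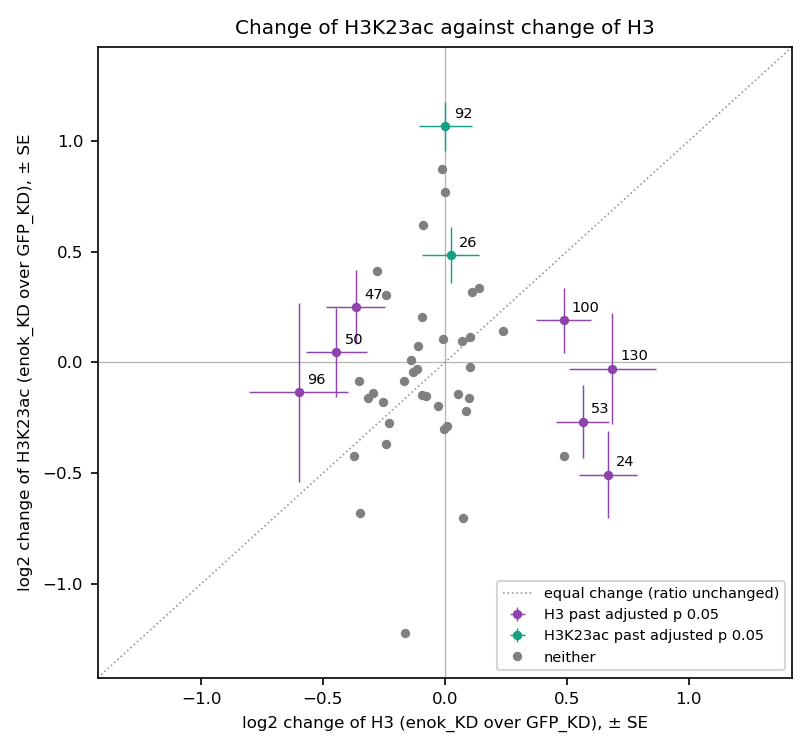
Log2 change of H3K23ac against log2 change of H3 (enok_KD over GFP_KD, ± SE for clusters that passed in either) for the 46 Het clusters, where points above the dotted line have a higher ratio in enok_KD. Clusters 92 and 26 passed for H3K23ac with H3 near 0, whereas 24, 53, 100, 130, 47, 50 and 96 passed for H3 and not for H3K23ac in this fit, in which the lower H3K23ac of cluster 24 had an edgeR adjusted p of 0.060 and passed in some other settings.

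Of the clusters that the study lists for lower RNA or for strongly lower piRNAs in enok mutants, 2 are on Het scaffolds. The one on 3LHet (bases 1166304 to 1227110) had log2 ratios of -0.41 and -0.23 in enok_KD and -0.40 and -0.62 in GFP_KD, a change of 0.19 ± 0.22 (SE, edgeR adjusted p = 0.68). The other is the cluster at bases 185301 to 208455 of 3RHet described above, whose ratio changed by -0.05 ± 0.31 (edgeR adjusted p = 0.95). In both clusters the ratios of the knockdowns overlapped, and neither H3 nor H3K23ac passed in either.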

How the data were processed

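ChIP-seq libraries of H3 and H3K23ac from enok_KD and GFP_KD ovaries (2 each) were analysed from the read counts per piRNA cluster. Per the study's methods and processing notes, the authors aligned single-end reads to dm3 with Bowtie2 2.2.1, without mismatches, and kept uniquely mapped reads. Trimmomatic and bedtools are also named, whereas the treatment of duplicates and the counting program are not given in the sources used here. The deposited counts are whole numbers, not normalised and not pooled. The authors' columns of their own DESeq2 comparison (fold changes and p-values) were not used. Unique mapping leaves out reads of identical repeats, so that reads per kb are not occupancy, and a coordinate difference was taken as the tables give it, with length counted from the first to the last base. No gene annotation or sequence of dm3 was used here.

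Clusters with a mean of at least 10 counts over 8 libraries were tested. Libraries were scaled by TMM (factors 0.687 to 1.33), and 4 group means were fitted with edgeR 4.0.16 (R 4.3.3, biological coefficient of variation 0.0657, no block). P-values of all 93 clusters were adjusted by the Benjamini-Hochberg method, with a threshold of 0.05, and all tests were two-sided. Log2 ratios set H3K23ac against H3 of the same library number, a pairing the labels do not state, with an offset of 0.5 on counts. Changes are enok_KD over GFP_KD. The fit was tested on simulated data before use. Replicates of GFP_KD H3K23ac (chi-square p = 0.19) and GFP_KD H3 (p = 0.052) did not differ beyond counting noise over the Het clusters, but those of all groups did over transposons (GFP_KD H3K23ac, p = 1.1e-33), so all were kept as separate libraries. With 22774 to 72946 counts per library over all clusters, sampling error limits the clusters with few reads.

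The clusters named were those past the threshold in the change of the ratio, of H3 or of H3K23ac, the highest and lowest of each scaffold in the GFP_KD ratio, the densest in GFP_KD H3, and cluster 92. Also named were those that the study lists for lower RNA or for strongly lower piRNAs (on Het scaffolds cluster 131 of 3LHet and cluster 137 of 3RHet, given by position in the text). The study reports significantly lower piRNAs at many more clusters, which were not used for naming. Clusters 13, 81, 90, 98, 104, 70, 69, 37, 49 and 138 were named outside this rule, after their values were seen. The members and lists were chosen with earlier results of these data known. Alternatives were other scalings, filters, DESeq2 1.42.0, limma 3.58.1 (voom), a replicate block and leaving out cluster 92 or each library.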

Additional observations from a re-analysis of the deposited data

How the results depend on the processing

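Of the clusters called for a changed ratio, 92 kept its call under every alternative that could hold it, 24 and 53 under all but the library left out as given in the report, and 47 did not. Named changes that were not called changed sign as follows. With total counts the change of H3K23ac was -0.20 at cluster 100, -0.14 at cluster 47 and -0.34 at cluster 50 (-0.0024 with cluster 92 left out of the totals), and the change of the ratio was -0.022 at the listed 3LHet cluster (bases 1166304 to 1227110). The change of H3K23ac at cluster 130 was 0.050 with DESeq2 size factors, 0.040 with transposon factors, 0.0053 with cluster 92 left out and 0.033 with the DESeq2 test. The change of the ratio at the highest 3RHet cluster (bases 185301 to 208455) was 0.0056, 0.022 and 0.12 with DESeq2 size factors, cluster 92 left out and cluster 92 left out of the totals. The change of H3 at clusters 26 and 92 was -0.15 and -0.18 with total counts, -0.20 and -0.22 with cluster 92 left out of the totals, -0.024 and -0.047 at a mean of at least 100 counts, and at cluster 26 -0.017 with cluster 92 left out. The GFP_KD ratios of 4 clusters called as higher also changed sign, since their zero moves with the scaling. With transposon factors they were -0.082, -0.47, -0.0060 and -0.018 at clusters 26, 35, 41 and 92, and at cluster 35 -0.21 with total counts and -0.14 with cluster 92 left out of the totals.

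Het clusters called numbered 7 (ratio), 14 (H3) and 12 (H3K23ac) with total counts, 17 (H3) with cluster 92 left out of the totals, 3 (H3) with DESeq2 and 16 (GFP_KD ratio) at a mean of at least 100 counts. In the same order, 18, 24, 31, 33 and 5 of all 93 tested clusters were called, and 53 of 63 at a mean of at least 100 counts. The summed change was 0.54 with total counts and 0.050 with cluster 92 left out. The summed GFP_KD ratio was -0.22 with total counts, 0.39 with DESeq2 size factors, -0.48 with transposon factors, -0.27 with cluster 92 left out, -0.15 with it left out of the totals and 0.21 at a mean of at least 100 counts. The median change of the ratio was -0.16, 0.11, 0.10, 0.22 and 0.11 with total counts, DESeq2 size factors, cluster 92 left out, left out of the totals and at a mean of at least 100 counts. Leaving out single libraries gave 2 to 5 calls for the ratio, 2 to 10 for H3 and 1 to 3 for H3K23ac, a summed GFP_KD ratio of 0.25 to 0.32 and a median change of -0.021 to 0.14, and changes of -0.28 to 0.23 (H3K23ac, cluster 130), -0.52 to 0.23 (ratio, highest 3RHet cluster), -0.075 to 0.18 (H3K23ac, cluster 50) and -0.019 to 0.030 (H3, cluster 92). Calls over all 93 tested clusters also moved when single libraries were left out. For H3 and H3K23ac they were most and fewest without the same libraries as the Het calls. For the ratio this held for the most calls only. These ranges of Het calls thus do not set the Het clusters apart. The cause of these shifts was not tested.

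The labels do not say that libraries of one number share chromatin. Their deviations correlated by 0.60 between H3K23ac and H3 in enok_KD, by -0.09 in GFP_KD, and between -0.13 and 0.26 across the knockdowns (63 clusters with at least 100 counts), so the numbers were not taken as pairs in the fit. The log2 ratios per library pair, their SDs and the counts of clusters apart do use the numbers and depend on that choice. With the replicate block 5 Het clusters were called for the ratio, 7 for H3, 3 for H3K23ac and 30 for the GFP_KD ratio. Of all 93 tested clusters 13, 13, 11 and 71 were called. Cluster 26 was added for a higher ratio (0.45, edgeR adjusted p = 0.0099) and cluster 24 for lower H3K23ac. Depth limits the 9 clusters with fewer than 10 reads in an H3K23ac library.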
